A study of Mus musculus with 15 samples.

Results

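Costimulatory receptors and the ligand gene Cd70 were followed through 15 RNA libraries of CD8+ T cells taken from mouse tumours. The 9 genes were chosen by name and not by a measured value, but with earlier results of these data known. The genes are Cd28, Icos, Cd27, Cd70, Tnfrsf4, Tnfrsf9, Tnfrsf18, Cd40lg and Cd226. They are 9 of 21788 gene symbols listed in any of the files, and all 9 were listed in all 15 libraries.

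The tumours were E.G7, an ovalbumin-producing (OVA) mouse T cell lymphoma line, and its cells had been injected under the skin of female C57BL/6 mice aged 6 to 8 weeks. T cells were sorted on day 21, at an age of 9 to 11 weeks. All groups carried this tumour. A pair of bulk libraries held OVA-specific CD8+ T cells from wild-type mice and from mice labelled as B7S1 knockouts (KO), and each of these groups counted 6 mice. B7S1, encoded by Vtcn1, is an inhibitory ligand of the B7 family, and B7S1R is the name the labels use for its receptor. PD-1+ CD8+ T cells had been sorted into B7S1R_SP (Tim-3-, B7S1R+), TIM-3_SP (Tim-3+, B7S1R-) and DN (negative for both), each as 2 numbered wild-type libraries and 1 library labelled KO. Their strain entries run on numerically beyond C57BL/6, so these groups rest on the titles. The last 4 libraries were labelled Control, anti_B7S1, anti_PD1 and combo, 1 library each. The last label was read as both antibodies given together, which it does not spell out, and no dose or schedule is given in the sources used here.

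A T cell that meets antigen needs a further signal to divide, survive and make cytokines. CD28 and ICOS are receptors of the immunoglobulin superfamily that bind B7-family ligands on antigen-presenting cells and signal through PI3 kinase. CD27, OX40 (Tnfrsf4), 4-1BB (Tnfrsf9) and GITR (Tnfrsf18) belong to the TNF receptor family, recruit TRAF adaptors and activate NF-kB, and several of them appear on T cells only after activation. CD70 is the ligand of CD27, CD40 ligand (Cd40lg) engages CD40 on antigen-presenting cells, and CD226 (DNAM-1) shares its ligands with the inhibitory receptor TIGIT.

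Values were RPKM in the bulk pair and FPKM in the other 13 libraries. Both units scale reads to gene length and to the library's total. The bulk pair held 7908 to 8042 genes at 1 or more, each sorted library 8860 to 10362 and each antibody library 5752 to 8640, and read depth was not estimated here. Vtcn1, the gene named in the KO label, read 0.0687 RPKM in the bulk wild-type library and 9.46 RPKM in the library labelled KO. In the sorted libraries it was listed at 0 in the 3 wild-type libraries numbered 2 and at 0.16 to 2.5 FPKM in the 3 labelled KO. These values go against the label, they do not show whether the deleted part of the gene was read, and the KO group is called by its label throughout. Havcr2, which encodes Tim-3, read 27.4 to 157 FPKM in TIM-3_SP and 0 to 9.34 FPKM in the other sorted libraries. Nothing in the labels says that same-named sorted libraries came from separate mice, so p-values measure only the spread between these libraries.

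All 9 listed genes of the T cell identity list (such as Cd3e and Cd8a) were above 0 in every library. Their summed level was 3492 to 7259 FPKM in DN, 6642 to 8767 FPKM in TIM-3_SP and 2296 to 4499 FPKM in B7S1R_SP. Summed myeloid markers ran the other way, at 97.6 to 556 FPKM in DN, 106 to 139 FPKM in TIM-3_SP and 459 to 6258 FPKM in B7S1R_SP. The myeloid sums cover 11 of 15 markers in wild type 1 and all 15 in the other sets. B7S1R_SP of wild type 1 summed to 2275 FPKM, with Cd74 at 943 FPKM and H2-Ab1 at 526 FPKM. The highest myeloid sum was in the B7S1R_SP library labelled KO, where Lyz2, a lysozyme of macrophages and neutrophils, read 2440 FPKM and Cd3e 34.2 FPKM. Its myeloid sum exceeded its T cell identity sum of 2296 FPKM, which goes against the label of a CD8+ T cell sort, so the main B7S1R_SP results are also given without it. Fewer T cells in a sort and less of a transcript per T cell cannot be told apart in such libraries.

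GITR and OX40 transcripts were the most abundant of the 9 genes. Tnfrsf18 ranked highest of the 9 in 11 of 15 libraries and among the top 2 in all 15. Tnfrsf4 ranked highest in 3 libraries, namely the bulk pair and the antibody Control, and among the top 2 in 12. Tnfrsf9 ranked highest only in the anti_PD1 library. Cd40lg ranked last in 13 libraries and was listed at 0 in 6 of them. Cd28, Icos, Cd27, Cd70 and Cd226 mostly lay between, in an order that changed from library to library, while Cd70 ranked last in combo and Cd226 in B7S1R_SP of wild type 2. Across the 9 sorted libraries the widest range on the log2 scale belonged to Tnfrsf9, from 3.37 to 444 FPKM, and the narrowest to Cd28, from 20.45 to 83.4 FPKM.

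**Figure D1:**
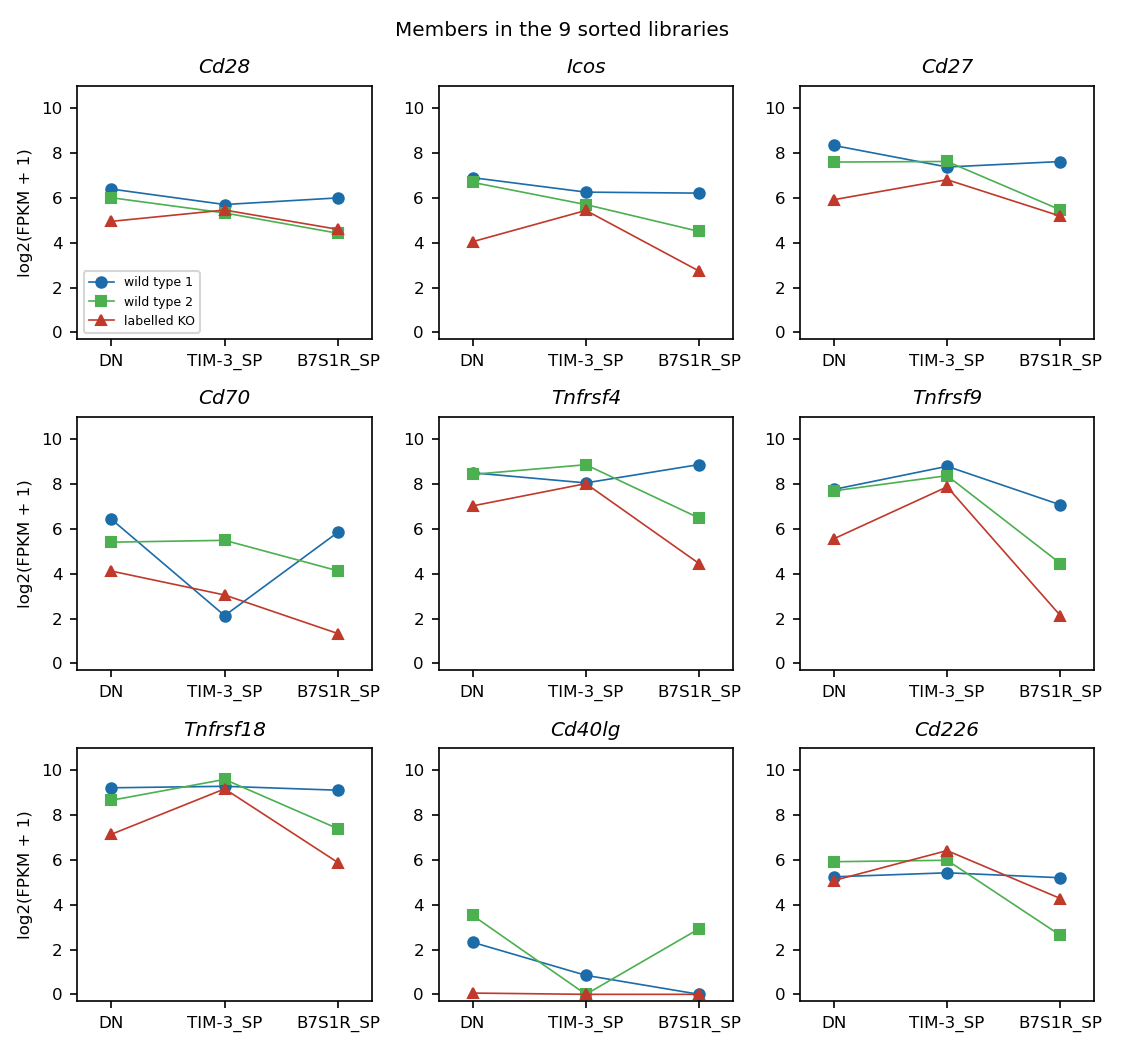
Level of each of the 9 genes as log2(FPKM + 1) in the DN, TIM-3_SP and B7S1R_SP libraries. Lines join the libraries of one set (wild type 1, wild type 2, labelled KO). Tnfrsf9 was higher in TIM-3_SP than in DN and lower in B7S1R_SP than in DN in all 3 sets.

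The sorted populations were compared to ask how costimulatory transcripts differ between CD8+ T cells that carry Tim-3, B7S1R or neither. The fit was limma on log2(FPKM + 1) over 10178 genes in the 9 libraries, with the library set (wild type 1, wild type 2, labelled KO) as a term. None of the 9 genes passed an adjusted p of 0.05 in any of 4 comparisons. Between TIM-3_SP and DN, limma called 6 genes (0.059%), and 922 genes (9.06%) had an unadjusted p under 0.05, none of them among the 9. Between B7S1R_SP and TIM-3_SP, limma called 42 genes (0.413%), and 1516 (14.9%) had an unadjusted p under 0.05, 4 of them among the 9. Between B7S1R_SP and DN, limma called 0 genes (0.0%), and 678 (6.66%) had an unadjusted p under 0.05, 2 of them among the 9.

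B7S1R_SP read lowest for most of these receptors. Against DN all 9 genes had a log2 fold change below 0, where 49.4% of all genes tested did. The median of the 9 was -1.38 and that of all genes 0.01. Against TIM-3_SP 7 of 9 were below 0, where 40.4% of all genes were, with medians of -1.32 and 0.18. That difference was small in wild type 1, where 5 of 9 read lower and 4 higher with a median of -0.04, while the medians were -2.16 in wild type 2 and -2.14 in the set labelled KO. Without the B7S1R_SP library labelled KO, 9 of 9 were below 0 against DN and 7 of 9 against TIM-3_SP, with medians of -1.05 and -0.99. Between TIM-3_SP and DN 5 of 9 were below 0, where 59.7% of all genes were, with medians of -0.01 and -0.14. T cell identity genes moved with these results: 9 of 9 tested read lower in B7S1R_SP than in DN, with a median log2 fold change of -1.11, and 8 of 9 read lower than in TIM-3_SP, with a median of -1.42. Myeloid markers moved the opposite way, 10 of 10 tested reading higher in B7S1R_SP in both comparisons, with medians of 2.68 and 3.64. The part of either in the members' values was not tested.

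Single libraries were also set side by side. Within every set, 8 of the 9 genes (Tnfrsf4 excepted) were lower in B7S1R_SP than in DN, as 14.0% of all genes were. Near ties are included, such as Cd226 at 35.9 against 37.0 FPKM in wild type 1. Cd40lg read 0 against 0.04 FPKM in the set labelled KO. At least 2-fold lower were 1 of 9 in wild type 1 (14.0% of all genes), 8 in wild type 2 (27.0%) and 5 in the set labelled KO (3.79%). Icos, Tnfrsf9, Tnfrsf18 and Cd226 were lower in B7S1R_SP than in TIM-3_SP within every set, as 13.9% of all genes were, and none was higher in every set, as 24.7% of all genes were. In wild type 1 the log2 differences of Icos, Tnfrsf18 and Cd226 were only -0.04, -0.18 and -0.22. Between TIM-3_SP and DN, Tnfrsf9, Tnfrsf18 and Cd226 were higher in every set (8.61% of all genes) and Cd40lg lower (19.7%). The smallest log2 difference was 0.68 for Tnfrsf9, 0.07 for Tnfrsf18 and 0.06 for Cd226. Cd40lg read 0 in TIM-3_SP against 0.04 FPKM in DN of the set labelled KO. Without regard to set, Tnfrsf9 was higher in each TIM-3_SP library than in every DN library, as 2.25% of all genes were, and no member was lower in that way, as 7.97% were. Tnfrsf9, Tnfrsf18 and Cd226 were lower in each B7S1R_SP library than in every TIM-3_SP library, as 4.44% were, and no member was higher, as 9.02% were. Between B7S1R_SP and DN every member overlapped, where 3.75% of all genes lay higher and 3.16% lower without overlap.

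**Figure D2:**
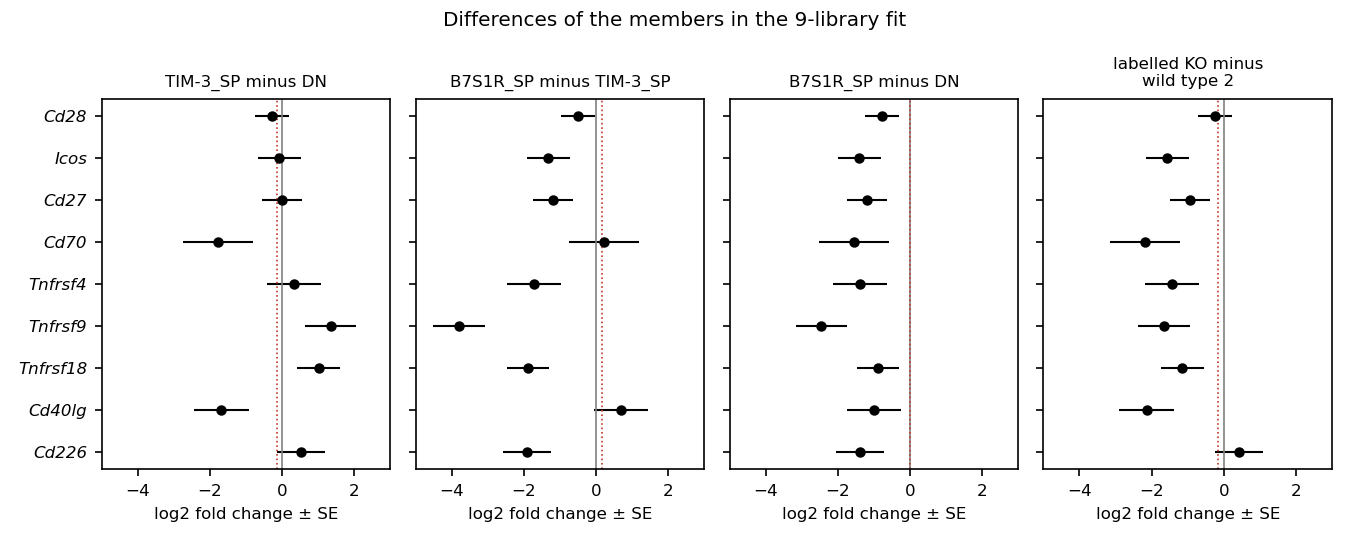
Log2 fold change ± SE of the 9 genes in the limma fit of the 9 sorted libraries, 1 panel per comparison. The dotted line is the median of all 10178 genes. All 9 points lie below 0 in the B7S1R_SP minus DN panel, and none passed an adjusted p of 0.05.

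The widest difference between populations was that of Tnfrsf9. 4-1BB marks T cells that have recently seen antigen and promotes their survival. In TIM-3_SP it read 444 FPKM in wild type 1, 332 in wild type 2 and 235 in the library labelled KO. In DN the same sets read 217, 207 and 46.2 FPKM. In B7S1R_SP they read 134, 21.0 and 3.37 FPKM. TIM-3_SP did not overlap either of the other populations, while DN and B7S1R_SP overlapped. The log2 fold change between B7S1R_SP and TIM-3_SP was -3.80 ± 0.71 (SE, limma, unadjusted p = 0.00051, adjusted p = 0.0691). Within wild type 1, wild type 2 and the set labelled KO the log2 differences were -1.72, -3.92 and -5.75. With each of the 9 libraries left out in turn it ran from -4.76 to -3.07, with adjusted p of 0.0280 to 0.256 by limma. The value under 0.05 came without the B7S1R_SP library of wild type 1, the set with the smallest difference, and the other 8 fits called no member. Without the B7S1R_SP library labelled KO it was -3.07 (limma, adjusted p = 0.212). In the 6 wild-type libraries alone and without the set term it was -2.82 (limma, adjusted p = 0.949). The B7S1R_SP minus DN value was -2.46 ± 0.71 (limma, adjusted p = 0.715), and the TIM-3_SP minus DN value was 1.34 ± 0.71 (limma, adjusted p = 0.642).

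Within each set GITR transcripts were highest in TIM-3_SP, and they were lowest in the B7S1R_SP library labelled KO. Tnfrsf18 encodes a receptor that lowers the threshold for T cell activation and is abundant on regulatory T cells. In TIM-3_SP it read 625, 774 and 577 FPKM in wild type 1, wild type 2 and the library labelled KO. In DN it read 596, 405 and 141 FPKM, and in B7S1R_SP 553, 167 and 58 FPKM. TIM-3_SP did not overlap B7S1R_SP and overlapped DN. For Tnfrsf18 the log2 fold change was -1.89 ± 0.59 (limma, adjusted p = 0.199), and in wild type 1 alone the difference was only -0.18.

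OX40 transcripts did not part the populations. Tnfrsf4 encodes a receptor induced on activated T cells that sustains their survival. In TIM-3_SP it read 265, 467 and 259 FPKM in wild type 1, wild type 2 and the library labelled KO. In DN it read 363, 346 and 129.65 FPKM, and in B7S1R_SP 469, 88.6 and 20.9 FPKM. The populations overlapped, since the B7S1R_SP library of wild type 1 held the highest value of all 9. Markers of CD4 and regulatory T cells summed to 174.5 FPKM in that library and to 8.23 to 188 FPKM in the other 8 sorted libraries. Cd4 was highest there, at 23.35 FPKM against 0 to 6.03 FPKM, and so was Foxp3, the regulatory T cell factor, at 1.41 FPKM against 0 to 1.16 FPKM. Lrrc32 was also highest there, at 15.7 FPKM against 0 to 2.62 FPKM, while Il2ra, Ikzf2, Zbtb7b and Ccr8 were each higher in at least 1 other sorted library. The part of such cells in its Tnfrsf4 value was not tested. The log2 fold change between B7S1R_SP and TIM-3_SP was -1.71 ± 0.75 (limma, adjusted p = 0.331).

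Tnfrsf4, Tnfrsf18 and Tnfrsf9 all lie on the forward strand of chromosome 4, and the genes of OX40 and GITR are 9551 bases apart (GRCm38). With each value taken relative to its library set, log2(FPKM + 1) over the 9 sorted libraries correlated at Pearson r = 0.949 for Tnfrsf9 with Tnfrsf18, 0.915 for Tnfrsf4 with Tnfrsf18 and 0.907 for Tnfrsf4 with Tnfrsf9. These libraries share the differences in T cell and myeloid markers given above, so the r values are a description. Other pairs lay as high, at 0.933 for Cd27 with Cd226, 0.929 for Cd28 with Cd27 and 0.909 for Cd28 with Icos. The promoters of the 3 genes on chromosome 4 are shown because Tnfrsf9 had the widest difference and the other two are the most abundant members. Each is a RefSeq window (GRCm38.p6, forward strand) from 250 bases before to 50 after the annotated start. Capitals mark matches on either strand to TGANTCA, the AP-1 motif, or to a loose NF-kB motif of GGG and CC with any 5 bases between them.
Tnfrsf9, chr4:150927749-150928048: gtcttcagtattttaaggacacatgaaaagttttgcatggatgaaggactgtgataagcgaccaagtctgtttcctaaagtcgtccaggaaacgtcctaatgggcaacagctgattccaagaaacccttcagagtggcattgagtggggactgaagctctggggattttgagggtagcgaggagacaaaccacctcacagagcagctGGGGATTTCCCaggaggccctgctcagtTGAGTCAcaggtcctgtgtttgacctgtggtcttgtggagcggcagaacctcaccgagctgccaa
Tnfrsf4, chr4:156013445-156013744: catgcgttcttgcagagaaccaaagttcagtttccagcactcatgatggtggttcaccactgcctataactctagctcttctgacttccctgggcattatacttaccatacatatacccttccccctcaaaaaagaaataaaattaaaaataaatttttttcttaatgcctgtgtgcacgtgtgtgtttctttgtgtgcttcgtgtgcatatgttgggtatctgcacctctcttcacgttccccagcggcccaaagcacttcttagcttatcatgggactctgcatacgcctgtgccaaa
Tnfrsf18, chr4:156026072-156026371: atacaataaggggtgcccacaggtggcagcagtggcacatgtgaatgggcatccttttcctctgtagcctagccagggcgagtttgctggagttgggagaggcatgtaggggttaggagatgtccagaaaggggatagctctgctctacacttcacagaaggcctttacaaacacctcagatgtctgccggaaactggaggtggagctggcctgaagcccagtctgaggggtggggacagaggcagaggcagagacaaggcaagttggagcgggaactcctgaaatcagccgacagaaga
The Tnfrsf9 window held an AP-1 match, found in 7.81% of 32851 RefSeq promoter windows, and 2 overlapping NF-kB matches at positions 208 and 209, with at least 1 such match in 50.8% of windows. Neither motif was found in the other two windows shown, nor in the window of a further annotated Tnfrsf9 start. The Cd27 promoter window also held 2 overlapping NF-kB matches and no AP-1 match.

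CD27 transcripts were highest in the DN library of wild type 1. Cd27 is present on naive and memory T cells and supports the survival of primed cells. DN read 324, 193 and 59.7 FPKM in wild type 1, wild type 2 and the library labelled KO. TIM-3_SP read 166, 197 and 112 FPKM, and B7S1R_SP read 197, 43.2 and 35.45 FPKM. All 3 populations overlapped. The B7S1R_SP minus DN log2 fold change was -1.20 ± 0.55 (limma, adjusted p = 0.753), lower in 3 of 3 sets.

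Cd28 varied least of the 9 genes. The founding costimulatory receptor of T cells, it read 83.4, 63.5 and 30.0 FPKM in DN of wild type 1, wild type 2 and the set labelled KO. TIM-3_SP read 51.25, 39.3 and 43.05 FPKM, and B7S1R_SP read 63.15, 20.45 and 23.2 FPKM. The populations overlapped, and the spread of Cd28 around the fit was the smallest of the 9, with a residual SD of 0.49 on the log2 scale against a median of 0.66 over all genes. Its log2 fold changes were -0.78 ± 0.47 for B7S1R_SP minus DN and -0.29 ± 0.47 for TIM-3_SP minus DN (limma, adjusted p = 0.767 and 0.905).

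Icos, a receptor induced on activated T cells, read 119, 103 and 15.5 FPKM in DN. TIM-3_SP read 75.7, 51.2 and 42.5 FPKM, and B7S1R_SP read 73.4, 21.7 and 5.64 FPKM. The groups overlapped, but within each set B7S1R_SP was the lowest of the 3 populations. The log2 fold change was -1.40 ± 0.59 against DN and -1.32 ± 0.59 against TIM-3_SP (limma, adjusted p = 0.742 and 0.347).

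Cd226 encodes the receptor that competes with TIGIT for the ligands CD155 and CD112. TIM-3_SP read 42.0, 62.4 and 84.55 FPKM in wild type 1, wild type 2 and the library labelled KO. DN read 37.0, 59.65 and 32.85 FPKM, and B7S1R_SP read 35.9, 5.20 and 18.4 FPKM. TIM-3_SP did not overlap B7S1R_SP, with a log2 fold change of -1.91 ± 0.67 (limma, adjusted p = 0.239). In wild type 1 the 3 populations were almost level. Tigit itself was lower in every B7S1R_SP library, at 790.2, 173 and 25.9 FPKM, than in any TIM-3_SP library, at 1374, 1140.2 and 809 FPKM. Its log2 fold change was -2.81 ± 0.71 (limma, adjusted p = 0.135).

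The genes of the ligands CD70 and CD40L had patterns of their own. Cd70, which activated T cells can express for CD27 on their neighbours, read 85.7, 41.5 and 16.4 FPKM in DN of wild type 1, wild type 2 and the set labelled KO. TIM-3_SP read 3.38, 44.05 and 7.29 FPKM, and B7S1R_SP read 56.9, 16.5 and 1.51 FPKM. All 3 populations overlapped, the wild-type TIM-3_SP libraries lay far apart, and the residual SD of Cd70, 1.62 on the log2 scale, was the largest of the 9. The log2 fold change was -1.76 ± 0.97 for TIM-3_SP minus DN and 0.21 ± 0.97 for B7S1R_SP minus TIM-3_SP (limma, adjusted p = 0.653 and 0.949). The second of these turned to -1.30 without the TIM-3_SP library of wild type 1. Cd40lg, better known for its role on CD4+ helper cells, read 4.01, 10.5 and 0.04 FPKM in DN. It was listed at 0 in 2 of 3 TIM-3_SP libraries and read 0.8 FPKM in the other, and in B7S1R_SP it was listed at 0 in 2 libraries and read 6.64 FPKM in wild type 2. Its TIM-3_SP minus DN log2 fold change was -1.69 ± 0.76 (limma, adjusted p = 0.553), on a scale that understates changes of low genes.

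Since T cell transcripts differed between the sorts, each gene was also divided by Cd3e, a chain of the T cell receptor complex, in the same library. This ratio was chosen after the values had been seen. Tnfrsf9 per Cd3e was 0.894 to 1.02 in TIM-3_SP, 0.4751 to 0.614 in DN and 0.0985 to 0.4747 in B7S1R_SP. The 3 populations did not overlap, although the lowest DN and the highest B7S1R_SP ratios nearly met. Among all genes tested, 1.2% lay higher per Cd3e in TIM-3_SP than in DN without overlap, 0.668% lay lower in B7S1R_SP than in TIM-3_SP, and 0.531% lay lower in B7S1R_SP than in DN. No other of the 9 genes kept B7S1R_SP apart from either population on this scale, where 30.3% of all genes lay higher than in TIM-3_SP and 11.1% higher than in DN. Cd28, Cd27 and Cd70 lay lower per Cd3e in all TIM-3_SP libraries than in all DN libraries, as 13.6% of genes did. For Cd28 the ranges were 0.106 to 0.186 and 0.188 to 0.309, and for Cd27 0.381 to 0.530 and 0.574 to 0.756.

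**Figure D3:**
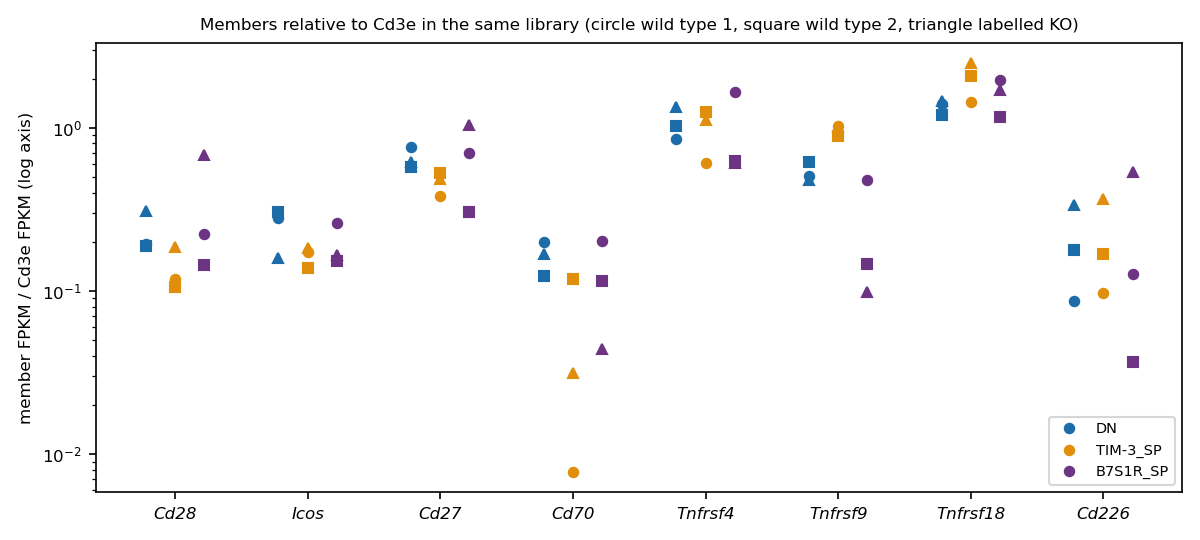
FPKM of 8 of the genes divided by FPKM of Cd3e in the same sorted library, on a log axis (Cd40lg is left out because it is listed at 0 in several). Symbols give the library set and colours the population. Only the Tnfrsf9 ratios part all 3 populations, at 0.894 to 1.02 in TIM-3_SP, 0.4751 to 0.614 in DN and 0.0985 to 0.4747 in B7S1R_SP.

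A fit with every library scaled to the same T cell identity level gave the same direction for Tnfrsf9. Between B7S1R_SP and TIM-3_SP its log2 fold change was then -2.70 ± 0.63, with an adjusted p of 0.0210 by limma, in a fit that called 2060 genes, 66 of them lower. Under that scaling the median of all genes went from 0.18 to 1.14 and that of the 9 genes from -1.32 to -0.20. Cd28 turned from -0.49 to 0.66 under it. Between B7S1R_SP and DN, Cd28 and Tnfrsf18 turned to 0.12 and 0.04. Against DN the median of the 9 was -0.48 under this scaling and that of all genes 0.78.

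The sorted libraries labelled KO were also fitted against wild type numbered 2, although the Vtcn1 values go against that label. Genotype and library set cannot be told apart here, because each genotype entered this comparison as 1 set. No member was called, against 1 gene of 10178 (0.00983%), and 670 genes (6.58%) had an unadjusted p under 0.05, 3 of them among the 9 (Icos, Tnfrsf9 and Cd40lg). Below 0 lay 8 of 9 genes, where 60.3% of all genes did, with medians of -1.43 and -0.15, and the members' median was -0.92 without the B7S1R_SP library labelled KO. Icos, Cd27, Cd70, Tnfrsf4, Tnfrsf9 and Tnfrsf18 were lower in the library labelled KO in 3 of 3 populations, a pattern of 23.4% of all genes. Cd70 lay farthest from 0, at -2.18 ± 0.97, followed by Cd40lg at -2.13 ± 0.76, Tnfrsf9 at -1.66 ± 0.71 and Icos at -1.56 ± 0.59 (limma, adjusted p of 0.755 to 0.762). The log2 difference of Icos was -2.65 in DN, -1.77 in B7S1R_SP and -0.26 in TIM-3_SP. T cell identity genes also read lower, 9 of 9 tested with a median of -0.52, and their part was not tested. Cd226 was the exception, at 0.41 ± 0.67.

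In the bulk OVA-specific cells, Cd70 was the member that differed most. It read 231 RPKM in wild type and 57.3 RPKM in the library labelled KO, a log2 ratio of RPKM + 1 of -1.99. It was the only member past a 2-fold ratio with 5 or more RPKM in the higher library, as 12.1% of 6075 genes were in that direction. There is 1 library per group, so the difference has no replicate check. Cd27, which encodes the receptor of CD70, read 25.1 RPKM in wild type and 51.1 RPKM in the library labelled KO, a ratio of 1.995 with 1 added to each value, as in the calls, and of 2.03 with 0.1 added, so this call depends on the pseudocount. Tnfrsf9 read 31.1 and 46.7 RPKM, and Cd226 read 26.6 and 36.1 RPKM. Cd28 read 148 and 166 RPKM, Icos 154 and 169 RPKM, and Tnfrsf18 649.9 and 643 RPKM. Tnfrsf4, at 2152 and 1662 RPKM, had the highest level of any member in the pair. Markers of T cell identity summed to 9226 RPKM in wild type and 10873 RPKM in the library labelled KO. Dendritic markers summed to 922 and 157 RPKM, nearly all of it Ccr7 (893 and 131 RPKM), a chemokine receptor that naive and memory T cells also carry. Their part in the Cd70 values was not tested.

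Among the antibody libraries, Tnfrsf9 read higher and Cd70 lower in each treated library than in Control. The 3 treated libraries share that Control, and the share of all genes with either pattern was not computed. Tnfrsf9 read 148 FPKM in Control, 309 in anti_B7S1, 557 in anti_PD1 and 391 in combo. Cd70 read 134, 2.47 and 39.3 FPKM in the same order and was listed at 0 in combo. With 1 library each there is no replicate check, and these libraries differed broadly: 37.9% of 7083 genes were past 2-fold higher and 29.0% lower in anti_B7S1 than in Control. The matching shares were 43.8% and 23.8% of 7829 genes for anti_PD1 and 40.1% and 28.0% of 7226 for combo. Of genes at 20 FPKM or more in all 9 sorted libraries, 166 of 1583 (10.5%) read under 0.5 FPKM in Control, 5.31% in anti_B7S1, 0.442% in anti_PD1 and 3.79% in combo. A low or 0 value can thus be a failed estimate, those of Cd70 in anti_B7S1 and combo included. Control also stood apart in Havcr2, at 0.19 FPKM against 174 to 213 FPKM in the other 3. Dendritic markers summed to 5461 FPKM in Control, nearly all of it Ccr7 (5452 FPKM), and to 2338, 904 and 258 FPKM in anti_B7S1, anti_PD1 and combo. Myeloid markers summed to 493 FPKM in Control and to 209, 135 and 184 FPKM in the others. Among them Cd68 read 247 FPKM in Control, 0.05 and 24.9 FPKM in anti_B7S1 and anti_PD1 and was listed at 0 in combo, while Lyz2 read 66.7 FPKM in combo and 0 to 0.2 FPKM elsewhere. Itgax, which encodes CD11c, read 7.58 FPKM in Control and was listed at 0 in the other 3, and Zbtb46, a dendritic cell factor, was listed at 0 in Control. The part of such cells in the members' values was not tested.

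Of the 8 members with 5 FPKM or more, 1 was past 2-fold higher (Tnfrsf9, log2 ratio 1.06) and 1 lower (Cd70, -5.28) in anti_B7S1. In anti_PD1, Icos, Cd27, Tnfrsf9 and Tnfrsf18 were past 2-fold higher, with log2 ratios of 1.22, 1.49, 1.91 and 1.18, and Cd70 and Tnfrsf4 lower, at -1.75 and -1.33. In combo, Cd27, Tnfrsf9 and Tnfrsf18 were past 2-fold higher, at 1.62, 1.40 and 1.07, and Cd70 was listed at 0. T cell identity markers summed to 3350 FPKM in Control and 5223 FPKM in combo, and with libraries scaled to them only Cd27 stayed past 2-fold higher in combo, at 1.09. Tnfrsf9 and Tnfrsf18 were then at 0.86 and 0.53, and Cd28 and Icos were past 2-fold lower, at -1.39 and -1.25. With the median ratio set to 0, Tnfrsf18 was short of 2-fold in anti_PD1 and combo, at 0.97 and 0.88, Tnfrsf9 in anti_B7S1, at 0.93, and Cd28 was past 2-fold lower in combo, at -1.05. These unscaled shares of members lie near or below those of all genes, and the 3 comparisons share the Control library.

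Like Tnfrsf9, Cd27, Tnfrsf18 and Cd226 stood above Control in all 3 treated libraries, which share that Control. The share of all genes that did so was not computed. The median log2 ratio of all genes tested was also above 0, at 0.20 in anti_B7S1, 0.49 in anti_PD1 and 0.27 in combo. Cd27 read 55.1, 79.9, 157 and 172 FPKM in Control, anti_B7S1, anti_PD1 and combo, and Tnfrsf18 read 244, 441, 552 and 511 FPKM. Cd226 read 28.0, 31.8, 41.4 and 51.2 FPKM. Cd28 went the other way, at 136, 75.3, 90.2 and 74.1 FPKM. Tnfrsf4 read 331, 393, 131 and 407 FPKM, so only the anti_PD1 library was low. Icos read 76.0, 102, 178 and 45.55 FPKM, highest in anti_PD1 and lowest in combo. Cd40lg was listed at 0 in Control and anti_B7S1 and read 1.17 and 1.19 FPKM in the others.

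Against the single antibodies, combo was past 2-fold higher than anti_B7S1 for Cd27, with a log2 ratio of 1.10, and past 2-fold lower for Icos, at -1.14. Across those libraries 33.3% of 7546 genes were past 2-fold higher and 30.8% lower. Combo was past 2-fold higher than anti_PD1 for Tnfrsf4, at 1.63, and lower for Icos, at -1.95, with Cd70 listed at 0. There 23.6% of 8000 genes were past 2-fold higher and 32.7% lower.

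**Figure D4:**
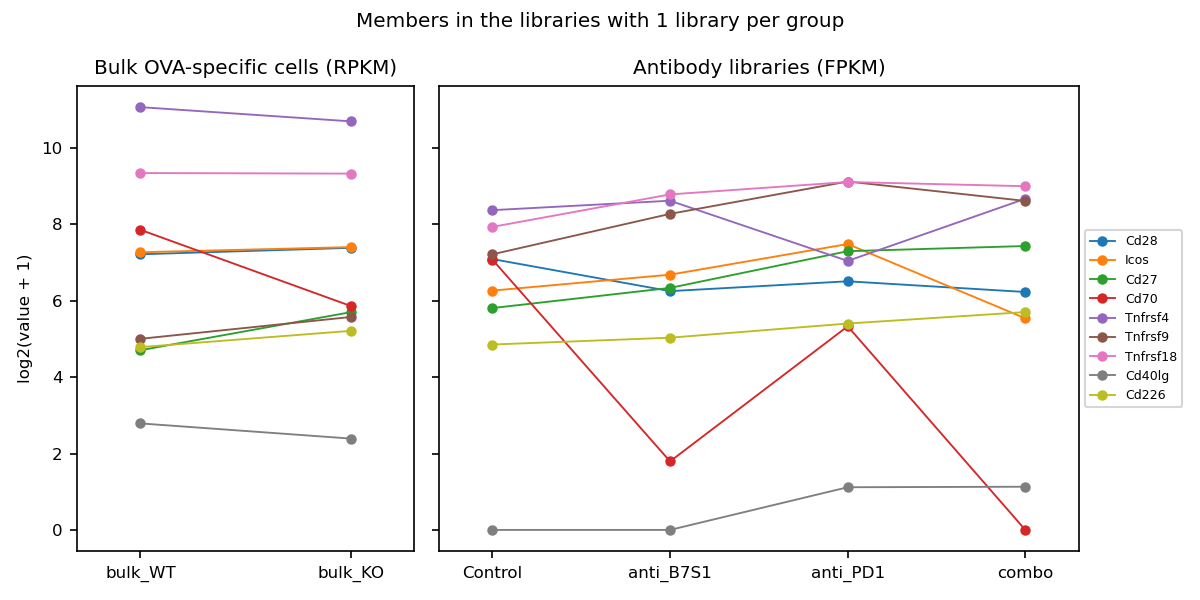
Level of the 9 genes as log2(value + 1) in the bulk pair (RPKM, left) and the antibody libraries (FPKM, right), 1 library per group and so no error bars. Cd70 has its highest value in the wild-type bulk library and in Control of the respective panels. Tnfrsf9, Cd27, Tnfrsf18 and Cd226 are higher in each treated library than in Control.

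Other genes of the same pathways were read from lists of ligands, co-receptors and signalling molecules. On the list of other costimulatory receptors 12 genes could be fitted. Whether they activate or inhibit these cells was not tested. Cd244 (2B4, a receptor of the SLAM family) fell in B7S1R_SP against TIM-3_SP by limma, with a log2 fold change of -3.66 ± 0.54 and an adjusted p of 0.0381. It read 3.18, 0.02 and 0.23 FPKM in B7S1R_SP and 27.1, 20.9 and 16.3 FPKM in TIM-3_SP. It was the only gene of these lists called in any comparison of the main fit. Without the B7S1R_SP library labelled KO, limma called 11 genes between B7S1R_SP and TIM-3_SP, against 42 with it. Whether Cd244 was among the 11 was not checked. In the 6 wild-type libraries alone, limma called 0 genes between B7S1R_SP and TIM-3_SP without the set term and 5 with it. Against DN all 12 read lower in B7S1R_SP, with a median of -1.32, and so did all 6 tested inhibitory receptors that share ligands or signalling with the members, with a median of -1.66. Ctla4, which competes with CD28 for CD80 and CD86, had a log2 fold change of -2.16 ± 0.60 there (limma, adjusted p = 0.695). Medians were nearer 0 for the genes downstream: 16 CD28 proximal signalling genes had a median of -0.14 with 10 below 0, and 19 TRAF and NF-kB genes had a median of -0.32 with 16 below 0. Between TIM-3_SP and DN, Tnfrsf25 (DR3) had the widest value of the co-receptors at -3.35 ± 0.50 (limma, adjusted p = 0.104), and the medians were -0.43 for co-receptors and 0.52 for the inhibitory receptors. In the libraries labelled KO all 12 co-receptors read lower, with a median of -1.09, and the 19 TRAF and NF-kB genes had a median of -0.70 with 14 below 0, among them Traf1 at -1.96 ± 0.72 (limma, adjusted p = 0.755).

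Of the ligand genes, some were read in these sorts and others barely. Tnfsf18, the ligand of GITR, read 0.0873 and 0.001 RPKM in the bulk pair, Icosl read 0 to 3.85 FPKM in the sorted libraries, and Cd40 was listed at 0 in 7 of those 9. Tnfsf4, the ligand of OX40, read 1043 FPKM in the antibody Control against 263, 141 and 29.7 FPKM in anti_B7S1, anti_PD1 and combo. It also read 149 RPKM in bulk wild type and 32.1 RPKM in the bulk library labelled KO, where 1 of 4 tested ligand genes was past 2-fold lower, as 12.1% of all genes were. In the sorted libraries it ranged from 0.5 to 87.9 FPKM. Tnfsf9, the ligand of 4-1BB, read 48.1, 52.9 and 5.67 FPKM in DN and 7.00, 11.4 and 3.85 FPKM in TIM-3_SP, where its receptor read higher. Its log2 fold change was -1.73 ± 0.52 (limma, adjusted p = 0.415).

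In the bulk pair, 2 TRAF and NF-kB genes were past 2-fold higher and 5 lower of 16 tested, where 10.7% and 12.1% of all genes were. Of these, Nfkbib, an inhibitor of NF-kB, read 85.9 RPKM in wild type and 12.6 RPKM in the library labelled KO. In anti_B7S1 against Control, 8 of 14 CD28 proximal signalling genes were past 2-fold higher and 1 lower, where 37.9% and 29.0% of all genes were. Vav1, an exchange factor downstream of CD28, read 77.1 against 7.71 FPKM. Akt2, a kinase gene of that list, read 30.8 against 0.06 FPKM, the second in the Control library where 10.5% of broadly expressed genes were under 0.5 FPKM.

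Genes whose pattern over the 9 sorted libraries was most like that of a member were ranked by Pearson r of log2(FPKM + 1), taken relative to the library set. The best matches were picked from 6233 genes over only 9 libraries. Their r values are thus selected maxima, and shared regulation was not tested. Tnfrsf9 was most like Btg3 (r = 0.987), Tigit (0.986) and Sdcbp2 (0.985). Cd226 was most like Lsp1 (0.999), Cd27 like Cd53 (0.996), Tnfrsf18 like Anapc11 (0.993), Cd70 like Dda1 (0.992) and Cd28 like Apobec3 (0.982). Icos, Tnfrsf4 and Cd40lg were most like Impa1 (0.975), Plscr1 (0.972) and Myc (0.976). Against the mean of the T cell identity list, r ran from 0.848 for Cd28 to 0.962 for Cd27 in 7 of the genes, and was 0.388 for Cd70 and -0.16 for Cd40lg. With the mean of the myeloid list, r ran from -0.867 for Tnfrsf9 to -0.036 for Cd40lg.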

How the data were processed

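RNA from sorted CD8+ T cells had been made into libraries with the SMARTer ultra low input kit and sequenced on Illumina HiSeq machines, per the labels' protocols. The authors deposited RPKM for the bulk pair and FPKM for the other 13 libraries, per the file headers. HISAT2, Bowtie2, RSEM and mm10 are named in the submitters' processing notes, without versions. Filters and annotation are not given in the sources used here, and no counts were used. Groups were taken from titles, because strain and genotype fields of the sorted libraries count upward from library to library.

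The files list 4 different gene sets (14710 to 17605 unique symbols). Repeated symbols were dropped. Sorted libraries were fitted with limma 3.58.1 in R 4.3.3 on log2(FPKM + 1), with population and library set as terms, over genes listed in all 9 whose mean reached 1 FPKM. P-values were adjusted by Benjamini and Hochberg's method and called under 0.05. The fit of TIM-3_SP versus DN was checked on simulated data. It called 42% of 50 genes changed 4-fold and 98% of 50 changed 16-fold. There were 11 false calls among 9978 unchanged genes. A 4-fold change of a member could thus go uncalled. All members except Cd28 spread more around the fit than the median gene, with residual SDs up to 1.62 for Cd70 against 0.66. The shares called in the simulation were not computed for the members themselves. Changes larger than 4-fold in these members could therefore go uncalled more often than the 98% implies. Deviations of same-numbered wild-type libraries from their group means had r = 0.197, 0.272 and 0.409 for the 3 pairs of populations (10178 genes). Each exceeds 0.1, so the numbers were treated as pairs and the set term was also used as the replicate block. The wild-type libraries numbered 1 list another gene set than those numbered 2. Paired replicates and a shift between these sets therefore cannot be told apart. Where groups had 1 library, genes were counted at a 2-fold ratio of value + 1 if the larger value was at least 5.

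All members were named, from each list every gene past the threshold and otherwise up to 2 genes with the largest change, and for each member the genes with the highest correlation. Tnfsf4, Tnfsf9, Tigit, Vtcn1, Havcr2, Cd4, Foxp3 and Lyz2 are named for their role, and other markers and ligands given beside a result were chosen after their values were seen. Members and lists were chosen with earlier results of these data known. Alternatives were another pseudocount, filters, scalings, TPM, absent genes counted as 0, no set term, and each library left out. Between populations, the fits without the set term used the 6 wild-type libraries only. Scaling to T cell identity genes was added after the data had been seen.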

Additional observations from a re-analysis of the deposited data

Results flagged for a closer look

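For Icos, the PD-1 antibody went with opposite differences in the pairs of libraries that have no library in common. The log2 ratio was 1.22 for anti_PD1 against Control, from 76.0 to 178 FPKM, and -1.14 for combo against anti_B7S1, from 102 to 45.55 FPKM. Each group is 1 library, so the difference between these effects was not tested.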

How the results depend on the processing

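Each count below is of genes, and the fits are limma. Between TIM-3_SP and DN, 6 genes were called. In the 6 wild-type libraries alone, no replicate block gave 0 and the replicate block 2. Pseudocount 0.1 gave 1, no filter 0, absent genes as 0 gave 2, TPM 0 and T cell identity scaling 18. Leaving out 1 library gave 0 to 3. Between B7S1R_SP and TIM-3_SP, where 42 genes were called (25 higher, 17 lower), these gave 0, 5, 2, 7, 24, 13 (5 higher, 8 lower) and 2060 (1994 higher, 66 lower), median ratio scaling gave 80 (36 higher, 44 lower), and leaving out 1 library 1 (TIM-3_SP of wild type 2) to 35. Of the 9 members 1, Tnfrsf9, was then called under median ratio scaling (-3.96, adjusted p = 0.0403) and T cell identity scaling, and leaving out 1 library gave 0 to 1. Between B7S1R_SP and DN, 0 genes were called. Pseudocount 0.1 gave 1, T cell identity scaling 10 and leaving out 1 library 0 to 1. For labelled KO, 1 gene was called. No replicate block (all 9 libraries, both wild-type sets together), the block in 6 libraries, pseudocount 0.1 and no filter gave 0. Absent genes as 0 gave 6, and leaving out 1 library 0 to 2. Values of members that turned in sign, none called, were as follows. Between TIM-3_SP and DN, median ratio scaling gave 0.10 for Icos and 0.16 for Cd27, no replicate block and the block in 6 libraries gave -0.010 for Tnfrsf4, and leaving out 1 library gave -0.59 to 0.012 for Cd28, -0.80 to 0.38 for Icos, -0.36 to 0.58 for Cd27 and -0.31 to 1.15 for Tnfrsf4. Between B7S1R_SP and TIM-3_SP, T cell identity scaling gave 0.66 for Cd28, and leaving out 1 library gave -1.30 to 1.07 for Cd70 and -0.32 to 1.41 for Cd40lg. Between B7S1R_SP and DN, T cell identity scaling gave 0.12 for Cd28 and 0.036 for Tnfrsf18. For labelled KO, Cd28 was 0.013 under median ratio scaling, 0.35 under T cell identity scaling and -0.56 to 0.054 with 1 library left out, and Cd226 was -0.43 to 1.01 with 1 left out, the lowest without B7S1R_SP of wild type 2. In bulk, members past 2-fold numbered 1, and 2 with pseudocount 0.1, TPM or the median ratio set to 0, as Cd27 joined Cd70; genes past 2-fold numbered 1389, and 2450 and 826 with minimums of 1 and 10. Members past 2-fold numbered 2 in anti_B7S1 against Control, and 1 with the median ratio set to 0; they numbered 2 in combo against anti_B7S1, and 4 with a minimum of 1 and 1 with T cell identity scaling. The cause of these differences was not tested. Depth was not estimated, so low values such as those of Cd40lg have no counting error here.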
